A study of Mus musculus with 6 samples.

Results

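Neutrophils are short-lived white blood cells that are made in bone marrow, and 37 genes of their granules, enzymes and receptors were followed here across tibial cartilage of 3 mutant and 3 control mice. The genes were listed by name and ordered by the stage of maturation at which neutrophils use them. On the array 37 of the 37 had a probe, each matched through its RefSeq accession and read from its brightest probe, and 34 passed the filter on dim probes, out of 25494 features tested in all. The 3 that did not pass are described separately.

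The mutants carried loxP-flanked ADAM10 alleles together with Cre recombinase under the Col2a1 promoter (ADAM10 flox/flox-Col2a1-Cre), and the other group is labelled only as control. All mice were C57BL/6, the series text gives 3 mice per genotype, and neither the age of the mice nor the alleles of the controls is stated there or in the labels. The Col2a1 promoter drives Cre in chondrocytes, and ADAM10 is a membrane protease that cleaves the outer parts of cell surface proteins. One array was hybridised per mouse, so the number of arrays limits the precision. Every level below is a log2 signal relative to the 75th percentile of its array, on which 0 means a signal equal to that percentile, and every difference is mutant minus control on the same log2 scale.

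Neutrophil precursors fill their granules in order. Primary granules, with myeloperoxidase and serine proteases, are made first, in promyelocytes. Secondary granules, with lactoferrin and cathelicidin, follow in myelocytes under the transcription factor C/EBP epsilon. The receptors for chemokines and bacterial peptides appear as the cells mature and leave the marrow for the blood. Long bones hold marrow next to the growth plate, and neutrophils are not a cell type of cartilage itself. In bulk tissue, fewer cells of a type and less RNA per cell cannot be told apart.

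Sequence just before the start of the secondary granule genes is shown first, because C/EBP epsilon is known to act on these genes. The windows are the 250 bases before each start, from RefSeq on the build GRCm38.p6, which is not the build mm9 of the array design. The letters searched were TTNNGCAA and its reverse complement TTGCNNAA, a form of the C/EBP site, on both strands. The windows that hold them are given here with each match in capitals.
Fcnb (GRCm38.p6, chr2:28084879-28085128, minus strand): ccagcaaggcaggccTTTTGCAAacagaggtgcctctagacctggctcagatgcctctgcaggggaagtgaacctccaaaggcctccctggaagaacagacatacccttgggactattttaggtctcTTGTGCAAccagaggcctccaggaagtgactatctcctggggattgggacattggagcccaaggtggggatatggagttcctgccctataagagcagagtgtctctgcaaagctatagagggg
Ngp (GRCm38.p6, chr9:110419558-110419807, plus strand): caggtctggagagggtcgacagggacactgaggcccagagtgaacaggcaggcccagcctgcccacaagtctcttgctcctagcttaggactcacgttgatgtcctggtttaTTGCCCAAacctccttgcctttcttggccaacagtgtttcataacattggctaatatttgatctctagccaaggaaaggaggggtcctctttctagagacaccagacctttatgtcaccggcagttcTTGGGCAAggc
Ltf (GRCm38.p6, chr9:111019042-111019291, plus strand): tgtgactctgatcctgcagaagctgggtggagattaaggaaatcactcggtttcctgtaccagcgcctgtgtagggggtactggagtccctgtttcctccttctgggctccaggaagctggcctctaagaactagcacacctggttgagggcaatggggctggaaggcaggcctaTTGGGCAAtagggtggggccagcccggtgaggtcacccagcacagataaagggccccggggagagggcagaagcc
Lcn2 (GRCm38.p6, chr2:32387740-32387989, minus strand): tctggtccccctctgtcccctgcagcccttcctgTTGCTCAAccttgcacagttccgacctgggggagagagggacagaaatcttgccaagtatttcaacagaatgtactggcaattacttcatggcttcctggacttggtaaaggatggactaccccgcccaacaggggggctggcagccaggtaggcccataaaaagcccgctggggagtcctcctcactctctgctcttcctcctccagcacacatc
Mmp8 (GRCm38.p6, chr9:7558179-7558428, plus strand): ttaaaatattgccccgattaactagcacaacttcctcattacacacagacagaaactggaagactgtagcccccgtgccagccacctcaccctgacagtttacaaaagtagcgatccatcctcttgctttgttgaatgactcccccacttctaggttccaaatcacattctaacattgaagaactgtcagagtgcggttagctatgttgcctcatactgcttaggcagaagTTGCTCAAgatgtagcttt

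These letters were present before 5 of 8 secondary granule genes with a window (62.5%). They were present before 5 of 8 late cytosolic, secreted and enzyme genes (62.5%), 1 of 6 primary granule and early genes, 0 of 3 oxidase genes and 1 of 9 surface receptor genes. Of all 32851 windows in the same table, 9.6% held them. The letters GAGGAA, or TTCCTC on the other strand, are the core of the site of the myeloid factor PU.1. They were present before 19 of the 34 listed genes with a window (55.9%) and in 23.3% of all windows. These 34 are not the 34 tested genes: Cd177, Cybb and Cxcr2 are among them, while Cebpe, Hp and Ncf4 had no window. Gfi1 and Plac8 had 2 windows each and counted if either held a match, whereas the shares of all windows count each window. Of the 2 searches, only the C/EBP letters are capitalised above. A match in these letters is a description of the sequence and not a measured binding site.

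The tissue and genotype were checked first. All 20 of 20 chondrocyte markers were well above background on all 6 arrays. Adam10 read 0.15, -1.70 and 0.31 in mutants 1 to 3, against 1.61, 1.58 and 1.21 in controls 1 to 3, with each mutant below each control. Its difference was -1.88 (SE 0.53, limma unadjusted p = 0.0108, adjusted p = 0.987). The floxed exon is not named in the labels, so whether the probe lies in the deleted stretch is unknown. On the first principal component mutant 2 had 71.2 and control 1 had -55.4, and the remaining 4 arrays had -14.1 to 15.2. Xist, of the inactive X chromosome, was brighter than the Y-linked Ddx3y in mutant 3 and control 1 and dimmer elsewhere. Mutant 3 (Xist 2.05, Ddx3y -4.57) and mutant 1 (Xist -3.66, Ddx3y 2.02) had both above the levels of -7.34 to -7.23 at which the absent one was read on the other 4 arrays.

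Across the 34 tested neutrophil genes, 32 had a lower mean in mutants than in controls and 2, Csf3r and Itgam, had a slightly higher one. The median difference was -1.36, against 0.04 over all 25494 features. Of the 34, 23 differed by -1 or less, a drop of signal to 50% or less that held for 1.73% of all features. A difference below 0 was found for 40.0% of all features. None of the 34 passed limma's threshold of an adjusted p of 0.05, as was so for 0% of all features. The smallest adjusted p among them was 0.987. An unadjusted p below 0.05 was found for 10 neutrophil genes with a lower mean and 0 with a higher mean, where all features gave 1.88% lower and 1.55% higher. All 3 mutants lay below all 3 controls for 9 of the 34, against 3.75% of all features. The 10 and the 9 both include Fpr1 and Clec4e, which passed the filter on dim probes through the controls. With only features well above background on all 6 arrays, 8 neutrophil genes had an unadjusted p below 0.05 in limma, all lower.

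These counts depended on single arrays. Without control 3, 28 genes had an unadjusted p below 0.05, while 6 did without control 1, 6 without control 2 and 4 without both control 1 and mutant 2. The median difference was -0.71 without control 1, -0.72 without control 1 and mutant 2, and -0.78 with normexp background correction and percentile scaling.

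**Figure D1:**
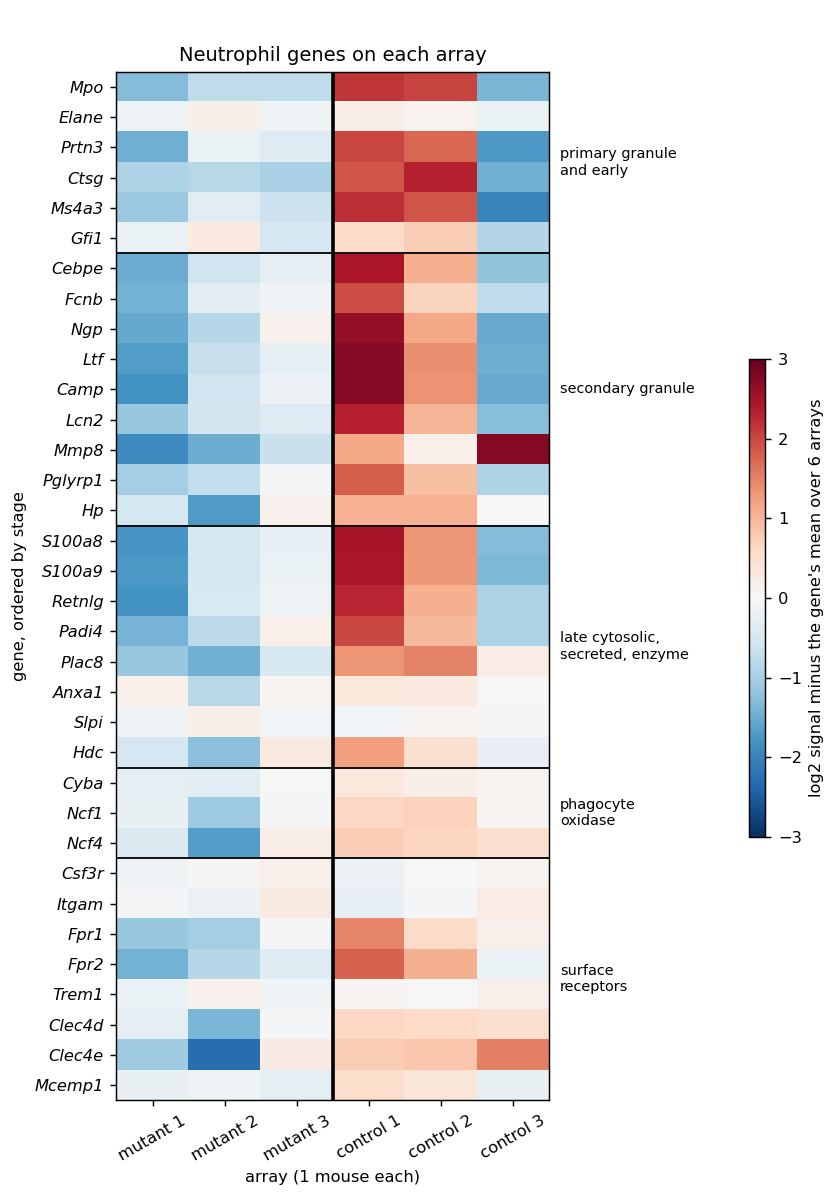
Heat map of 34 neutrophil genes (rows, in order of maturation stage) on the 6 arrays (columns, mutants 1 to 3 left of controls 1 to 3). Colour is the log2 signal minus the gene's mean over the 6 arrays, from -3 in blue to 3 in red. Most granule genes are red on controls 1 and 2 alone, whereas Mmp8 is reddest on control 3 and Elane, Slpi, Csf3r, Itgam and Trem1 are nearly white throughout.

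Primary granule and early genes had means below the controls in 6 of 6 cases, with a median difference of -1.36, and 0 of 6 had an unadjusted p below 0.05. That median was -0.65 without control 1, -0.80 without control 2 and -2.63 without control 3. It was -2.16 with array weights, -0.84 with normexp and quantile scaling, -0.86 without control 1 and mutant 2, and -0.73 on arrays with Ddx3y above Xist. Mpo, which encodes myeloperoxidase, read -0.50, 0.04 and 0.04 in mutants 1 to 3, against 2.94, 2.82 and -0.57 in controls 1 to 3. Controls 1 and 2 were far above every mutant, and control 3 was below every mutant. The difference of Mpo was -1.87 (SE 0.93, 95% interval -4.10 to 0.36), so the groups overlapped and the interval included 0. Ctsg, the serine protease cathepsin G, read -1.47, -1.36 and -1.52 in the mutants, against 1.34, 1.76 and -1.98 in the controls. The mutants were within a narrow band, and the controls split in the same way as for Mpo. The difference of Ctsg was -1.82 (SE 0.94).

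Prtn3, which encodes proteinase 3, read -5.11, -3.87 and -4.05 in the mutants, against -1.68, -1.94 and -5.40 in the controls. Ms4a3, a membrane protein that marks granulocyte and monocyte progenitors, read -4.43, -3.63 and -3.97 in the mutants, against -1.11, -1.44 and -5.33 in the controls. For both genes control 3 was the only array not well above background. Gfi1, a transcriptional repressor needed for neutrophil production, had a smaller span, with -2.31, -1.83 and -2.65 in the mutants, against -1.56, -1.37 and -2.99 in the controls. Its difference was -0.29 (SE 0.46), and it turned to 0.013 without control 2. For each of the 6 genes in this group control 3 was the lowest of the 6 arrays.

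Elane, which encodes neutrophil elastase and lies beside Prtn3 on chromosome 10, did not share this span. Elane read 1.66, 1.95 and 1.64 in the mutants, against 1.98, 1.88 and 1.58 in the controls, a range of 0.40 over the 6 arrays, where Prtn3 spanned 3.72. The difference of Elane was -0.06 (SE 0.16, 95% interval -0.45 to 0.32). One probe measured each of these 2 genes, and what the Elane probe binds was not tested.

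Secondary granule genes were below the controls in mean in 9 of 9 tested cases, with a median difference of -1.51. With all 6 arrays each differed by more than 1, but without control 1 the median was -0.74, and 7 of the 9, all but Mmp8 and Hp, lay between -0.85 and -0.55. The median was -2.36 without control 3, and -0.73 without control 1 and mutant 2. Cebpe, the transcription factor C/EBP epsilon, read -3.53, -2.67 and -2.33 in the mutants, against 0.40, -0.96 and -3.26 in the controls. Camp, the precursor of the antimicrobial peptide cathelicidin, read -0.06, 1.17 and 1.56 in the mutants, against 4.48, 3.09 and 0.22 in the controls. Lcn2, a siderophore-binding protein that chondrocytes and other cells also make, read -1.29, -0.70 and -0.54 in the mutants, against 2.18, 0.86 and -1.44 in the controls. In each, controls 1 and 2 exceeded every mutant by over 1, and control 3 was below at least 2 mutants.

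Ltf, the iron-binding lactoferrin, read -2.15, -1.16 and -0.76 in the mutants, against 2.25, 0.92 and -1.93 in the controls. Ngp, the neutrophilic granule protein, read -2.22, -1.54 and -0.55 in the mutants, against 1.95, 0.47 and -2.19 in the controls. The order of arrays was the same in these 2 genes, with mutant 1 lowest and control 1 highest. Their differences were -1.77 (SE 1.03) for Ltf and -1.51 (SE 1.04) for Ngp, both with 95% intervals that included 0. Fcnb, the lectin ficolin B, differed by -1.23 (SE 0.71) and was well above background on 2 mutant and 2 control arrays. Pglyrp1, a peptidoglycan-binding protein, differed by -1.20 (SE 0.68).

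Mmp8 and Hp departed from this order. Mmp8, the collagenase of neutrophil granules, which chondrocytes can also make, read -4.80, -4.40 and -3.59 in the mutants, against -1.79, -2.76 and -0.15 in the controls. Here every mutant was below every control, and control 3 was the highest array. For the other tested primary and secondary granule genes control 3 was below controls 1 and 2. The difference of -2.70 (SE 0.67, 95% interval -4.31 to -1.08, limma unadjusted p = 0.00611, adjusted p = 0.987) was the lowest of the 34 genes, a 6.48-fold lower mean signal. It was -1.33 with normexp and percentile scaling, and its unadjusted p was 0.0514 without control 1 and mutant 2. Hp, the hemoglobin-binding haptoglobin, read 0.74, -0.44 and 1.38 in the mutants, against 2.30, 2.31 and 1.27 in the controls. Control 3 fell just below mutant 3, and the difference was -1.40 (SE 0.51, unadjusted p = 0.0316). Its unadjusted p was 0.0562 to 0.0965 without control 1, control 2, mutant 1 or mutant 2.

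Late cytosolic, secreted and enzyme genes were below the controls in mean in 8 of 8 cases, with a median difference of -1.48. The median was -0.73 without control 1, where S100a8 differed by -0.85 and S100a9 by -0.77, and -2.30 without control 3. It was -0.78 without control 1 and mutant 2 and -0.93 with normexp and quantile scaling. S100a8 and S100a9 encode the paired calcium-binding proteins that make up calprotectin, the most abundant cytosolic protein of neutrophils. S100a8 read 0.49, 1.79 and 2.03 in the mutants, against 4.74, 3.60 and 0.97 in the controls. S100a9 read 2.32, 3.53 and 3.84 in the mutants, against 6.49, 5.33 and 2.67 in the controls. In both, control 3 lay between mutant 1 and mutant 2, and the differences were -1.67 (SE 0.96) and -1.60 (SE 0.97). Retnlg, a resistin-like secreted protein, followed them, with -2.74, -1.41 and -1.10 in the mutants, against 1.35, 0.11 and -1.90 in the controls.

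Padi4, the enzyme that citrullinates histones in extracellular traps, differed by -1.36 (SE 0.78) on the probe used. That probe was well above background on only 1 mutant and 2 control arrays. The other Padi4 probe was well above background on 5 of 6 arrays and differed by -0.08, so the 2 Padi4 probes disagreed in size. Hdc, which makes histamine and is also a gene of mast cells and basophils, differed by -0.98 (SE 0.49). Plac8, a small cysteine-rich protein of myeloid and some lymphoid cells, read -1.48, -1.78 and -0.83 in the mutants, against 0.99, 1.15 and -0.13 in the controls. Every mutant was below every control, and the lowest control was control 3. The difference was -2.04 (SE 0.40, 95% interval -3.00 to -1.07, limma unadjusted p = 0.00184, adjusted p = 0.987). Over 20 alternative analyses of the same arrays it ranged from -2.43 to -1.58. The other Plac8 probe differed by -1.13.

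Anxa1 and Slpi, which many cell types outside the blood also make, had differences nearer 0. Anxa1, the anti-inflammatory protein annexin A1, read 4.80, 3.83 and 4.72 in the mutants, against 4.97, 4.94 and 4.66 in the controls, with only mutant 2 apart, a difference of -0.40 (SE 0.28). Slpi, an inhibitor of elastase and cathepsin G, read 1.69, 2.00 and 1.75 in the mutants, against 1.75, 1.90 and 1.87 in the controls. Its difference was -0.03 (SE 0.13, 95% interval -0.35 to 0.29).

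Phagocyte oxidase genes encode the complex that makes superoxide in neutrophils and in macrophages. All 3 tested genes had separated groups and an unadjusted p below 0.05, with lower means. Over all features the shares so placed were 3.75% and 1.88%. The median difference of the 3 genes was -0.90. It was -0.59 without mutant 2, -0.56 with normexp and quantile scaling and -0.50 without control 1 and mutant 2. Ncf4, the p40phox subunit, read 1.06, -0.15 and 1.69 in the mutants, against 2.24, 2.14 and 1.98 in the controls. The controls were close together and mutant 2 was lowest, for a difference of -1.25 (SE 0.44, unadjusted p = 0.0276) that was -0.75 without mutant 2. Ncf1, the p47phox subunit, read -2.31, -3.17 and -2.11 in the mutants, against -1.45, -1.40 and -2.03 in the controls, a difference of -0.90 (SE 0.32). Without mutant 2 it was -0.59. Cyba, the membrane subunit p22phox, which is also made by many other cells, read 3.36, 3.29 and 3.64 in the mutants, against 3.95, 3.81 and 3.72 in the controls, a difference of -0.39 (SE 0.14). Mutant 2 was the lowest of the 6 arrays for all 3 genes, and control 3 was above every mutant. The 3 unadjusted p-values were 0.0631 to 0.0824 without control 1 or without control 2, and that of Cyba was 0.0928 without mutant 1 and 0.0751 without mutant 2.

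Of the 8 tested surface receptors of mature neutrophils, 4 had all mutants below all controls (3.75% of all features). Among these 4, Fpr1 and Clec4e were well above background on 3 controls and 1 mutant, so the controls alone met the filter. A difference below 0 was found for 6 of the 8 receptors (40% of all features), and their median difference was -0.79. The median was -0.38 with normexp and quantile scaling, -0.52 without control 1 and mutant 2, and -0.29 over those well above background on all 6 arrays. Fpr1 and Fpr2 are receptors for formylated bacterial peptides. Fpr2 read -4.99, -4.42 and -3.96 in the mutants, against -1.80, -2.50 and -3.78 in the controls. Fpr1 read -4.99, -4.88 and -3.91 in the mutants, against -2.39, -3.30 and -3.72 in the controls, and was well above background on 1 of 3 mutant arrays. Control 3 was just above the highest mutant for both. The differences were -1.76 (SE 0.53, unadjusted p = 0.0139) for Fpr2 and -1.46 (SE 0.42, unadjusted p = 0.0125) for Fpr1. With normexp and percentile scaling they were -0.74 for Fpr2 and -0.59 for Fpr1.

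Clec4d and Clec4e are neighbouring lectin receptors for mycobacterial and fungal glycolipids, on neutrophils and on macrophages. Clec4d read -2.27, -3.34 and -2.02 in the mutants, against -1.34, -1.37 and -1.49 in the controls, which differed from each other by at most 0.15. Its difference was -1.14 (SE 0.34, unadjusted p = 0.0130), and -0.75 without mutant 2. Clec4e read -6.31, -7.51 and -4.99 in the mutants, of which 1 was well above background, against -4.50, -4.40 and -3.71 in the controls. The difference of -2.07 (SE 0.62, unadjusted p = 0.0137) therefore rests on dim mutant signal, and it was -0.46 with normexp and percentile scaling. Mcemp1, a membrane protein of mast cells and neutrophils, differed by -0.44 (SE 0.21).

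Csf3r, Itgam and Trem1 read nearly alike on all arrays. Csf3r, the receptor for the growth factor that drives neutrophil production, read 7.59, 7.76 and 7.86 in the mutants, against 7.55, 7.74 and 7.82 in the controls. Itgam, the CD11b subunit of the main neutrophil integrin, read 6.57, 6.46 and 6.88 in the mutants, against 6.37, 6.59 and 6.85 in the controls. Trem1, a receptor that amplifies inflammation, read 1.80, 2.12 and 1.86 in the mutants, against 2.05, 2.01 and 2.15 in the controls. The groups overlapped in all 3 genes, and the 95% intervals were -0.29 to 0.36, -0.41 to 0.46 and -0.46 to 0.17. The other 2 Itgam probes were far dimmer, with mutant means of -4.03 and -2.32 against 6.64 on the probe used. Those 2 probes differed by -0.10 and -0.12. Which of the Itgam probes gives the level of its RNA, and what the Csf3r probe binds, was not tested. The sign of the Csf3r and Itgam differences changed with the scaling and with single arrays left out.

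**Figure D2:**
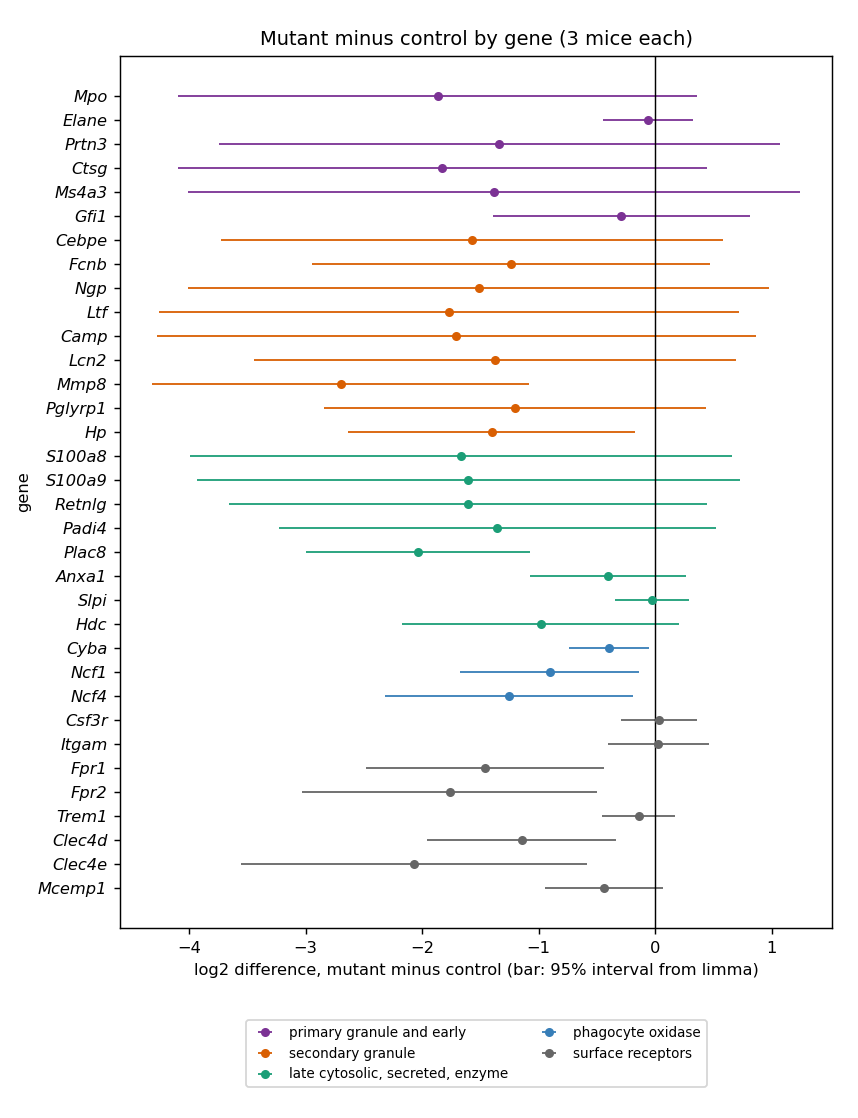
Difference in log2 signal, mutant minus control, for 34 neutrophil genes, with 95% intervals from limma (3 mice per genotype) and colours for the maturation groups. Intervals of 10 genes lie below 0, and those of the primary granule genes and of most secondary granule genes are wide and include 0.

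Of the 3 genes that did not pass the filter, 0 of 3 mutant arrays were well above background for any. Cxcr2, the receptor for the chemokines that draw neutrophils into tissue, read -5.58, -5.45 and -5.11 in the mutants, against -3.21, -4.22 and -5.85 in the controls, of which 1 and 2 were well above background. Cd177, a surface glycoprotein of neutrophils, read -6.17, -6.09 and -6.78 in the mutants, against -3.25, -5.18 and -6.75 in the controls, with control 1 alone well above background. Cybb, the catalytic oxidase subunit, read -5.47, -7.24 and -6.66 in the mutants, against -5.87, -4.65 and -5.63 in the controls, with control 2 alone well above background. For a bound, each mutant value was replaced by the lowest signal well above background on its array where that was higher, and the control values were kept as measured. On this rule the mutant mean was at least 1.75-fold lower for Cxcr2 and at least 1.13-fold lower for Cd177. Cybb gave a ratio under 1, so no fold is given for it. The folds are of means and do not hold for control 3. Control 3 was below every mutant for Cxcr2 and within the mutants' range for Cd177. The Cd177 fold rests on control 1 alone. Control 2, at -5.18, lay within the replacement values of the mutants, which ran from -5.43 to -5.06.

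The position of control 3 differed between the maturation groups. It lay below all mutants for 6 of 6 primary granule and early genes. It lay within the mutants' range for 7 of 9 secondary granule genes and for 7 of 8 late cytosolic, secreted and enzyme genes. It lay above all mutants for 3 of 3 oxidase genes and 5 of 8 surface receptors. Some of these placings were narrow. Elane read 1.58 in control 3 and 1.64 in the lowest mutant, and Trem1 read 2.15 in control 3 and 2.12 in the highest mutant. The placings of control 3 against the mutants were not counted over all features. Over the 34 genes, controls 1 and 2 were both above all mutants for 29, a placing that was not counted over all features. Control 3 was below both other controls for 28, a placing found in 24.6% of all features.

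Each maturation group was also given a score, in which every gene's log2 signal was centred on its average across arrays and the centred values were averaged. The primary granule score was -0.85, -0.27 and -0.57 in mutants 1 to 3, against 1.50, 1.46 and -1.27 in controls 1 to 3. The secondary granule score was -1.39, -0.84 and -0.19 in the mutants, against 2.09, 0.97 and -0.65 in the controls. The late cytosolic, secreted and enzyme score was -1.04, -0.70 and -0.08 in the mutants, against 1.51, 0.88 and -0.57 in the controls. Control 3 was lowest of all in the first and between mutants in the other two. In the oxidase score the mutants had -0.31, -1.02 and 0.06, against 0.56, 0.50 and 0.21 in the controls. In the receptor score the mutants had -0.57, -0.71 and -0.03, against 0.60, 0.43 and 0.27 in the controls. In these scores all mutants were below all controls.

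**Figure D3:**
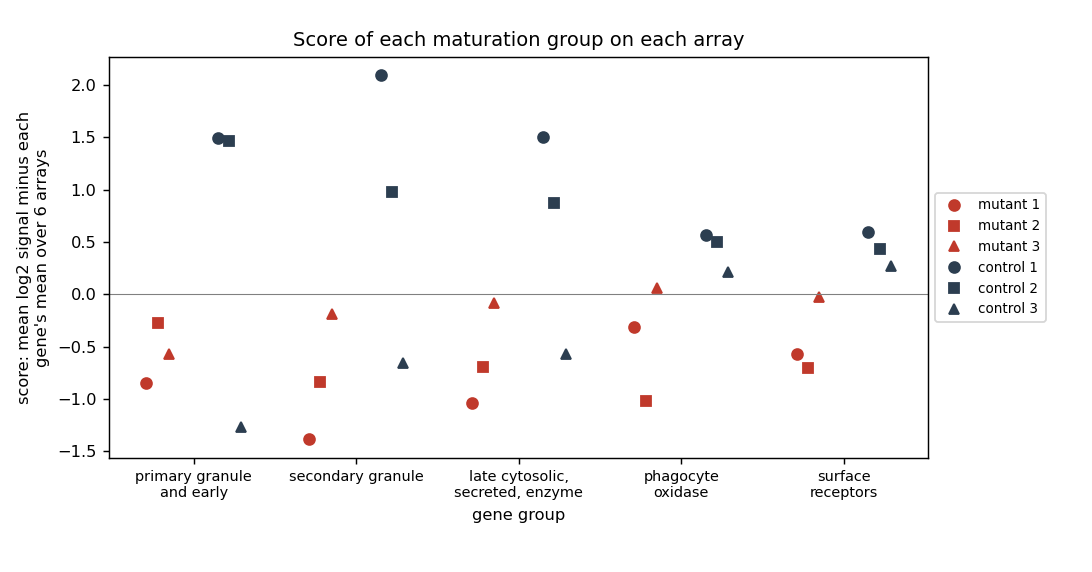
Score of each maturation group (mean log2 signal minus each gene's mean over 6 arrays) on each array, mutants in red left of controls in dark blue, 1 symbol per mouse. Control 3 (dark blue triangle) is the lowest point for primary granule genes, at -1.27, and lies above all mutants for oxidase genes and receptors, at 0.21 and 0.27.

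Mice of one genotype also differed from each other. Control 1 minus control 2 was between -0.43 and 0.32 for the 6 primary granule and early genes, with Mpo at 0.12. For the 9 secondary granule genes it had a median of 1.32, with 6 of them, Cebpe, Fcnb, Ngp, Ltf, Camp and Lcn2, between 1.30 and 1.47. The 8 late cytosolic, secreted and enzyme genes were divided. S100a8, S100a9, Retnlg and Padi4 were between 1.05 and 1.23 and Hdc was at 0.76, while Anxa1 was at 0.02, Slpi at -0.15 and Plac8 at -0.17. The 3 oxidase genes were between -0.06 and 0.14. Among the receptors Fpr1 was at 0.91 and Fpr2 at 0.70, and the other 6 were between -0.22 and 0.16. Mutant 3 minus mutant 1 had a median of 0.22 for primary granule and early genes and 1.21 for secondary granule genes, where it was above 0 in 9 of 9. For late cytosolic, secreted and enzyme genes the median was 1.15, above 0 in 7 of 8. It was 0.28 for oxidase genes and 0.29 for receptors. Each of these compares single mice, so they are descriptions with no test.

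**Figure D4:**
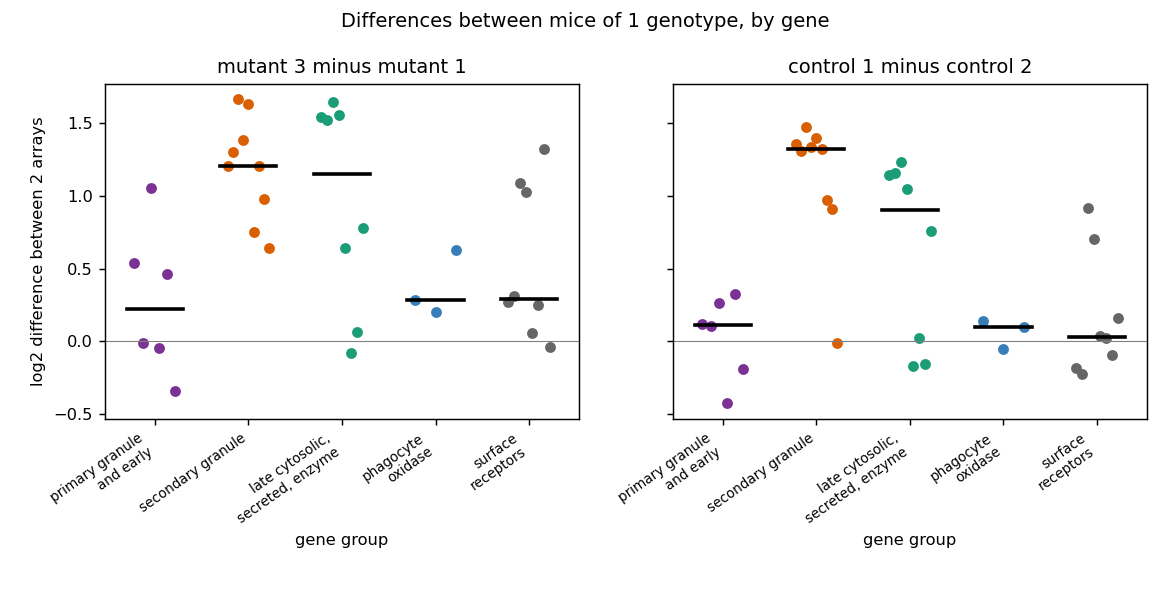
Differences in log2 signal between 2 mice of 1 genotype, for each of 34 genes by maturation group, as mutant 3 minus mutant 1 (left) and control 1 minus control 2 (right). Black bars are group medians. The secondary granule medians are 1.21 and 1.32, the late cytosolic, secreted and enzyme medians are 1.15 and 0.90, and the primary granule medians are 0.22 and 0.11.

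Other genes of the neutrophil programme, 50 in a list of regulators, chemokines, adhesion molecules and enzymes, had 37 members that passed the filter. Of these, 33 were below 0 and 4 above 0, with a median difference of -0.66, and 13 had an unadjusted p below 0.05, all lower. Over all features, 40% were below 0 and 1.88% had an unadjusted p below 0.05 with a lower mean. No member passed the adjusted threshold. Cxcl12, the stromal chemokine that retains neutrophils in marrow, read 2.62, 0.92 and 2.64 in the mutants, against 3.66, 4.80 and 3.97 in the controls, a difference of -2.08 (SE 0.53). Its receptor Cxcr4 differed by -0.66 (SE 0.39), and the groups overlapped. Spi1, the myeloid transcription factor PU.1, differed by -1.68 (SE 0.68).

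Others among the 13 included genes that macrophages also express. Lyz2 (lysozyme) differed by -1.42 (SE 0.37), and Rac2, a GTPase that activates the oxidase, by -1.46 (SE 0.47). Itgb2, the partner chain of Itgam, differed by -1.02 (SE 0.37). Selplg, the ligand of P-selectin, differed by -1.08, and the cytokine receptor chain Csf2rb by -1.20. The leukotriene genes Ltb4r1 and Alox5ap differed by -1.07 and -0.83. The cytokine gene Il1b differed by -1.18, the Fc receptor gene Fcgr4 by -0.90 and the glutathione transferase gene Mgst1 by -0.65. For each of these 10 genes, and for Cxcl12 and Spi1, every mutant was below every control. That held for 15 of the 37 tested genes of the list and for 3.75% of all features. Mmp9, gelatinase B of tertiary granules and of osteoclasts, read 3.22, 0.47 and 3.27 in the mutants, against 3.43, 4.23 and 3.90 in the controls, a difference of -1.54 (SE 0.76).

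Markers of some other blood and marrow cells ranked the arrays much as the granule genes did, and others did not. The score of the 34 neutrophil genes was -0.92, -0.69 and -0.17 in mutants 1 to 3, against 1.36, 0.87 and -0.45 in controls 1 to 3. Erythroid markers (16 tested, 16 below 0) scored -0.89, -0.49 and -0.18 in the mutants, against 1.73, 0.88 and -1.05 in the controls. B lymphocyte markers (11 tested, 11 below 0) scored -1.02, -0.78 and -0.22 in the mutants, against 1.45, 1.42 and -0.86 in the controls. Markers of eosinophils, basophils and mast cells (10 tested, 10 below 0) scored -1.02, -0.65 and -0.26 in the mutants, against 1.62, 0.77 and -0.46 in the controls. The neutrophil score minus the erythroid score was -0.026, -0.20 and 0.0048 in the mutants, against -0.37, -0.013 and 0.60 in the controls. Controls 1 and 2 were above every mutant in the neutrophil, erythroid, B lymphocyte and eosinophil scores. The same held for the megakaryocyte, stem and progenitor, T and NK lymphocyte, macrophage, osteoclast and endothelial scores given below. Megakaryocyte and platelet markers (7 tested, 6 below 0, median -0.67) scored -0.21, -0.84 and 0.04 in the mutants, against 1.01, 0.52 and -0.52 in the controls. Markers of blood stem and progenitor cells (8 tested, 6 below 0, median -0.61) scored 0.03, -0.79 and 0.13 in the mutants, against 0.46, 0.29 and -0.11 in the controls. In both of these mutant 2 was lowest. T and NK lymphocyte markers had a median difference of -0.04, with 5 of 7 below 0, and scored -0.35, -0.33 and 0.08 in the mutants, against 0.37, 0.40 and -0.18 in the controls. The part of these cell types in the neutrophil differences was not tested.

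Markers of monocytes and macrophages took another order. All 16 tested were well above background on all 6 arrays and 16 were below 0, with a median difference of -1.05. Their score was 0.01, -1.61 and 0.07 in the mutants, against 0.40, 0.81 and 0.32 in the controls, so mutant 2 was lowest and control 3 stood with the controls. Osteoclast markers (10 tested, 10 below 0) scored -0.04, -1.81 and 0.09 in the mutants, against 0.35, 0.79 and 0.63 in the controls. Endothelial markers (10 tested, 9 below 0) scored 0.02, -1.16 and 0.10 in the mutants, against 0.41, 0.51 and 0.12 in the controls. The oxidase genes and Clec4d, which macrophages also express, were likewise lowest on mutant 2, with control 3 above every mutant. Plac8 and Clec4e were placed in the same way. Hp, Hdc and Anxa1 were also lowest on mutant 2, with control 3 within the mutants' range. Chondrocyte markers (20 tested, 17 above 0) scored -0.03, 0.39 and -0.05 in the mutants, against -0.30, -0.02 and 0.01 in the controls. The part of these cells in the neutrophil differences was likewise not tested.

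**Figure D5:**
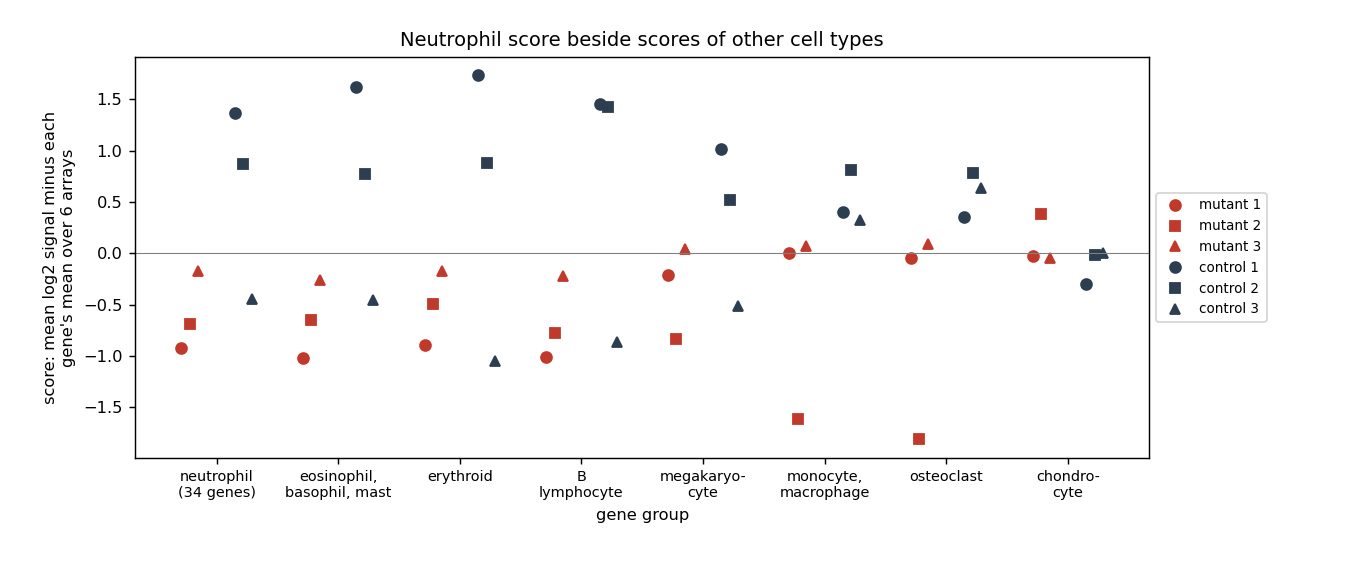
Score of the 34 neutrophil genes and of 7 marker lists (mean log2 signal minus each gene's mean over 6 arrays) on each array, mutants in red left of controls in dark blue. Neutrophil, eosinophil, erythroid, B lymphocyte and megakaryocyte lists are high on controls 1 and 2 only. Macrophage and osteoclast lists are also above every mutant on controls 1 and 2, and are lowest on mutant 2, at -1.61 and -1.81.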

How the data were processed

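RNA of 6 mice was measured on 1-colour Agilent mouse arrays. The labels' protocols name 100 ng of RNA and Cy3 dye, while the label field names Cy5. Scanner software (Agilent Feature Extraction 10.7.1.1, credited to the submitters' processing notes) gave the deposited intensity values, with background subtracted and no scaling between arrays, and the array design refers to mm9, per the file headers. The authors' deposited table is a ratio to each array's 75th percentile, as read from the values (75th percentile 1, column medians 0.094 to 0.104, correlation with the processed signal 1.00), and its making is not given in the sources used here.

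Deposited intensities of non-control spots were taken to log2 relative to each array's 75th percentile, and outlier spots were then left out. Spots of a probe were averaged, probes well above background on at least 3 of 6 arrays were kept, and the probe with the highest mean signal stood for a gene. Accessions were matched to RefSeq symbols of GRCm38.p6 for 27656 of 55681 probes, and the other 28025 kept the file's name. The test was limma's moderated linear model (version 3.58.1, under R 4.3.3), two-sided, with Benjamini-Hochberg adjustment over 25494 features and a threshold of 0.05. The fit had 4 residual and 2.42 prior degrees of freedom. An exact permutation test of 3 arrays against 3 cannot give a p below 0.1. The code was tested on simulated data. All arrays shared 1 slide and 1 scan, between 62.4% and 65.4% of spots were well above background, and 0 were saturated. Row 1 of the slide held controls 1 to 3 and mutant 1, and row 2 held mutants 2 and 3. Row and genotype were thus partly confounded.

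The neutrophil genes, their maturation groups, the marker lists, the motifs and the alternatives were chosen with earlier results of these data known, so the lists received no test. All listed neutrophil genes could be named. Of the other programme genes, those at an unadjusted p below 0.05 and Cxcr4, Cxcl12, Csf3, Lyz2, Mmp9 and Spi1 could be named, and Csf3 did not pass the filter. One gene that this rule names is not reported here. Alternatives were normexp or quantile processing, other percentiles, filters and probes, the authors' table, array weights, trended variance, a replicate block and subsets of arrays.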

Additional observations from a re-analysis of the deposited data

How the results depend on the processing

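The differences of the 34 neutrophil genes were recomputed under 20 alternatives. In the alternative on the slide's first row, mutant 1 was the only mutant, against controls 1 to 3. Of 674 values, 652 kept their sign, and 29 of the 34 genes kept it throughout. Csf3r turned to -0.018 with quantile scaling, -0.094 with array weights, -0.052 without control 1 and mutant 2, -0.11 on the slide's first row and -0.10 on arrays with Ddx3y above Xist, and ranged from -0.040 to 0.11 when single arrays were left out. Itgam turned to -0.061 with normexp and quantile scaling, -0.069 with quantile scaling, -0.064 with the mean of all its probes, -0.018 with array weights, -0.040 on the slide's first row and -0.21 on arrays with Ddx3y above Xist, and ranged from -0.10 to 0.15 with single arrays left out. On arrays with Ddx3y above Xist, Elane turned to 0.076 and Gfi1 to 0.11. With single arrays left out Elane ranged from -0.18 to 0.023, Gfi1 from -0.80 to 0.013 and Slpi from -0.12 to 0.035.

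The number of neutrophil genes at an unadjusted p below 0.05 was 10. It ranged from 6 to 28 with single arrays left out, was 27 with array weights and 4 without control 1 and mutant 2. The median difference ranged from -1.94 to -0.71 with single arrays left out, was -0.72 with normexp and quantile scaling, -1.83 on the slide's first row and -1.02 on arrays with Ddx3y above Xist. Array weights called 4 features, 0 of them neutrophil genes, and each other alternative called 0. The causes were not tested. Mouse numbers share only a number: their deviations correlated at 0.20, 0.06 and -0.16, 3 of 6 arrays correlated best with their own number, and with the replicate block 7 neutrophil genes had an unadjusted p below 0.05.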
